A study of Caenorhabditis elegans with 12 samples.

Results

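Moulting, the replacement of the cuticle at the end of each larval stage of the nematode Caenorhabditis elegans, was followed through 9 genes required to complete it: mlt-8, mlt-9, mlt-10, mlt-11, bli-5, lrp-1, acn-1, nekl-2 and nekl-3. They were taken by exact name from the count tables of 12 RNA-seq libraries, and all 9 were present among the 46711 entries of one table and the 46722 entries of the other. All 9 passed the filter on low counts in both tables, so no member was left out of a test.

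The epidermis of the worm builds a new cuticle beneath the old one, loosens the old one and sheds it. The work needs secreted matrix proteins, proteases and their inhibitors, and uptake of material at the outer face of the epidermis, and many of the genes involved are transcribed in pulses that recur with every larval stage. Loss of such genes leaves larvae caught in the old cuticle. let-7, the gene altered here, encodes a microRNA that acts late in larval life, in the pathway that times larval development, and lin-41 is its best known target.

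Whole animals were collected at the mid L4 stage after 45 h of feeding at 20 °C, and ribosomal RNA was depleted from their total RNA. Strain DG3913, the U13A control, carries lin-41(tn1541). Its mutant, VT3878, carries lin-41(tn1541ma480);let-7(ma432), so that both strains have an altered lin-41 and differ from each other in both genes. VT1367 with the transgene maIs105 served as U18A control, and VT3797, which holds let-7(ma435) beside the same transgene, was the U18A mutant. U13A and U18A name substitutions at positions 13 and 18 of mature let-7, and a label describes the U13A mutant as excluding what lies downstream of lin-41, so in that contrast the effects of the changes in let-7 and in lin-41 cannot be told apart. Every group had 3 libraries, lettered A to C. The labels do not say whether these were separate cultures, so p-values measure the spread between these libraries, which may be technical.

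The U13A libraries held 16659340 to 21414080 counts, but 65.6 to 76.8% of them fell in 3 entries (ZC155.8, B0285.12 and R144.15), which took at most 1.01% in the U18A libraries. Protein-coding genes received 8.85% of the counts of U13A control C, 16.6 to 18.8% in the other U13A libraries and 55.9 to 60.9% of the 6107652 to 9607239 counts of the U18A libraries. U13A control C stood apart from its group, with a chi-square per degree of freedom of at least 88.2 against the other controls. U18A mutant C (at least 17.1) did so less, where U18A mutants A and B differed by 6.73. U13A mutant C was at 20.4 and 18.95 against mutants A and B, which differed by 9.95. However, U13A controls A and B differed by 20.1 from each other. The 9 genes together had 813 to 1906 counts in a U13A library and 1803 to 6525 in a U18A library. The let-7 row did not check the labels: it had 13 to 85 and 8 to 49 counts in U13A controls and mutants and 48 to 2494 and 19 to 73 in U18A controls and mutants, in libraries not made for small RNA. lin-41 was at 138.4 to 149.8 CPM (scaled counts) in U18A controls and at 166.0 to 185.6 CPM in U18A mutants, and was called higher there (log2 fold change 0.28, SE 0.08, edgeR adjusted p 0.0338). This call was kept in 1 of 6 fits without 1 library, the one without U18A mutant C, with adjusted p-values of 0.0315 to 0.172, and DESeq2 gave 0.0764. In the U13A controls and mutants lin-41 was at 24.7 to 29.7 and 28.8 to 32.6 CPM (0.20, SE 0.12, adjusted p 0.563).

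CPM is a count scaled to a common library total, with library sizes adjusted by the TMM method of edgeR within each table. The 3 entries inflate the U13A library sizes, so CPM is compared only within a table. A change is a log2 fold change of mutant over control, with its standard error (SE), and a gene was called when its p-value in the quasi-likelihood F test of edgeR, adjusted over all genes of the table by the Benjamini-Hochberg method, was under 0.05.

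The positions of the genes were taken from the WBcel235 annotation. mlt-10 (WBGene00015646, chromosome II, 546705 to 552032, plus strand) and mlt-8 (WBGene00021095, chromosome II, 569210 to 572110, minus strand) lie 17177 bases apart. bli-5 (WBGene00000255) is on chromosome III at 13427640 to 13429768, minus strand, and mlt-11 (WBGene00012186) is on chromosome V at 20667205 to 20678537, plus strand. lrp-1 (WBGene00003071, 7614176 to 7634143) and nekl-2 (WBGene00022631, 6663161 to 6665160) lie on the plus strand of chromosome I. acn-1 (WBGene00000039, 5092481 to 5097067), nekl-3 (WBGene00008956, 12389594 to 12391480) and mlt-9 (WBGene00008605, 15101786 to 15107797) lie on the minus strand of chromosome X. The annotated exons of some members overlap a neighbour. bli-5 shares 82 exon bases (10.98% of its exons) with cope-1 on the opposite strand, nekl-2 shares 84 (7.05%) with ZC581.9 on the opposite strand, acn-1 shares 58 (1.88%) with pnk-4 on the opposite strand, and mlt-10 shares 109 (4.66%) with lips-7 on its own strand. Whether counting used strand is not given in the sources used here, so reads of these stretches are uncertain. In the U18A contrast the log2 fold changes of cope-1, ZC581.9 and pnk-4 were -0.02, 0.24 and 0.40 (adjusted p 0.954, 0.661 and 0.274), and lips-7, with 12 to 57 counts, changed by -1.60 (adjusted p 0.00113).

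In the U18A mutant 7 of the 9 genes fell: the 4 mlt genes, the protease inhibitor gene bli-5, the receptor gene lrp-1 and the peptidase-like gene acn-1. Their levels dropped 2.01- to 3.18-fold. The kinase genes nekl-2 and nekl-3 were not called. In this contrast 5.88% of all 12689 tested genes were called lower, and the values of the control and mutant libraries did not overlap, with the mutants lower, for 14.8% of genes and for 8 of the 9 members. The median log2 fold change was -1.23 for the 9 members and 0.0056 for all genes tested.

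mlt-10 encodes a nematode protein with proline-rich repeats, and its promoter is in common use as a reporter of the moult. Libraries A to C gave 142.1, 95.1 and 83.4 CPM in the U18A controls and 45.5, 45.3 and 39.5 CPM in the mutants. The groups did not overlap, and the lowest control was 1.84 times the highest mutant. This was a change of -1.30 (SE 0.20, adjusted p 0.0069), a 2.46-fold drop.

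mlt-11 encodes a secreted protein with many Kunitz domains, a fold that inhibits serine proteases. It was measured at 280.5, 169.9 and 153.9 CPM in controls A to C and at 74.0, 63.5 and 52.7 CPM in mutants A to C. Control A was far above the other controls, and all controls were above all mutants. mlt-11 had the largest change of the 9 members and also the widest spread among controls (coefficient of variation 34.2%), and its log2 fold change of -1.67 (SE 0.29, 95% interval -2.40 to -0.95) had an adjusted p of 0.0283. Only 0.426% of tested genes had a change as low.

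mlt-8 and mlt-9, found like the other mlt genes through moulting defects of larvae that lack them, had the following levels. The level of mlt-8 was 104.8, 80.4 and 62.5 CPM in controls and 34.2, 32.8 and 31.0 CPM in mutants, in the order A to C. That of mlt-9 was 86.1, 53.1 and 48.5 CPM in controls and 21.9, 21.3 and 19.1 CPM in mutants. The mutant libraries lay close together, with coefficients of variation of 4.88 and 7.28%, while the controls varied by 25.7 and 32.9%. mlt-8 changed by -1.33 (SE 0.17, adjusted p 0.000986) and mlt-9 by -1.59 (SE 0.23, adjusted p 0.00543).

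bli-5, whose product is another Kunitz-type inhibitor needed for a sound cuticle, had few counts, 52 to 64 in each control and 24 to 30 in each mutant. Its level was 9.55, 8.07 and 6.74 CPM in controls A to C and 3.46, 5.10 and 3.02 CPM in mutants A to C. The groups did not overlap, and mutant B was the highest mutant. bli-5 changed by -1.10 (SE 0.23, adjusted p 0.00414).

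lrp-1 encodes a megalin-like receptor of the LDL receptor family at the apical surface of the epidermis. It gave 275.7, 196.8 and 179.5 CPM in controls A to C and 105.9, 110.7 and 107.6 CPM in mutants A to C. No other member had mutant libraries as close together (coefficient of variation 2.26%). lrp-1 changed by -1.01 (SE 0.14, adjusted p 0.00113).

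acn-1 encodes a relative of angiotensin-converting enzyme that lacks the residues of the active site and is needed in the epidermis for moulting. Its level was 66.3, 48.9 and 38.4 CPM in controls A to C and 22.2, 23.3 and 20.0 CPM in mutants A to C. Again every control exceeded every mutant, here by at least 1.65 times. acn-1 changed by -1.23 (SE 0.18, adjusted p 0.00248).

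nekl-2 and nekl-3 encode NIMA-related kinases of the epidermis that act in endocytosis and are needed to shed the cuticle. nekl-2 had 5.08, 4.04 and 5.69 CPM in controls A to C and 4.04, 2.89 and 4.37 CPM in mutants A to C, so the groups overlapped. nekl-3 had 3.88, 3.10 and 2.95 CPM in controls and 1.88, 1.87 and 2.81 CPM in mutants, and the highest mutant was just below the lowest control. The log2 fold changes were -0.38 for nekl-2 (95% interval -0.86 to 0.11, adjusted p 0.372) and -0.54 for nekl-3 (95% interval -1.12 to 0.05, adjusted p 0.277). These rows held 11 to 54 counts per library, and drops of up to 1.12 on this scale lie within the interval of nekl-3.

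**Figure D1:**
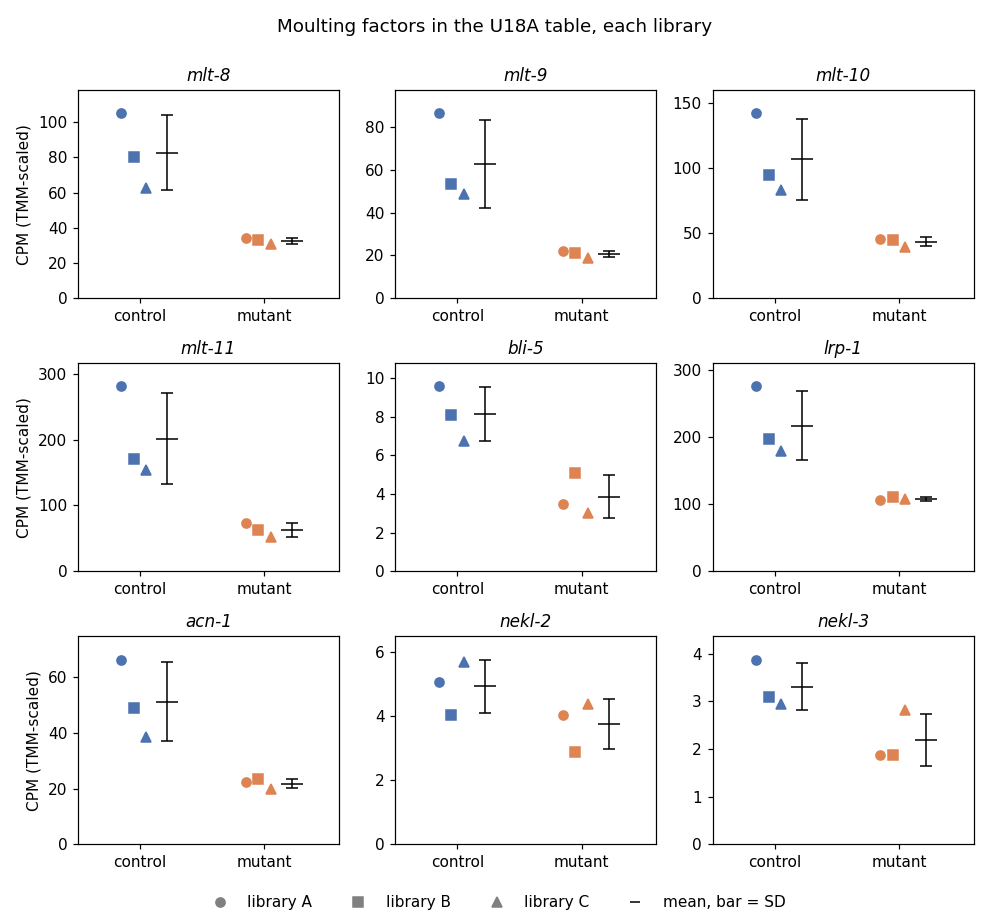
Each panel plots one gene's level (vertical axis, TMM-scaled CPM from 0) in the 3 control and 3 mutant libraries of the U18A table, with the symbol giving the library letter and the black mark the mean and SD. In all panels except that of nekl-2 the controls lie above the mutants, and control A is the highest library in 8 of 9 panels.

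The spread among the controls followed the same library for most genes. U18A control A was the highest control for 8 of 9 members and control C the lowest for 8 of 9, the exception in both being nekl-2. For the 7 called genes the highest control exceeded the lowest 1.42 to 1.82 times, and the lowest control exceeded the highest mutant 1.32 to 2.21 times. The mutants showed less of this: their highest library exceeded their lowest 1.05 to 1.41 times for the called genes other than bli-5, for which it was 1.69 times.

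The calls of the U18A contrast rested in part on mutant C. Without it 1 of the 9 members, bli-5, was called (adjusted p 0.0272), although the estimates hardly moved: that of mlt-8 was -1.30 (adjusted p 0.0744), that of mlt-10 -1.24 (0.145), that of mlt-11 -1.55 (0.194) and that of lrp-1 -1.01 (0.115). mlt-9 and acn-1 had adjusted p-values of 0.133 and 0.0955 without it. Without control B mlt-11 alone lost its call (adjusted p 0.0593), and leaving out any of the other 4 libraries left 7 members called.

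Whole animals were sequenced, so fewer cells of a type and less RNA per cell cannot be told apart. All libraries were collected at 45 h only, and a difference in stage between mutants and controls was not tested. The summed level of 5 epidermal markers (lin-26, elt-1, elt-3, vab-10 and let-805) was 1161 to 1411 CPM in U18A controls and 975.3 to 1124 CPM in mutants, with 1 of the 5 called lower. The summed level of 5 yolk protein genes, which adult hermaphrodites express in the intestine, was 3468 to 4318 CPM in controls and 5482 to 6209 CPM in mutants, with 3 of 5 called higher. Of 5 sperm markers the sum was 52.2 to 61.7 CPM in controls and 40.1 to 49.0 CPM in mutants, and that of 5 intestinal markers was 1054 to 1101 and 1154 to 1219 CPM, with none called in either list. All epidermal, yolk, sperm and intestinal markers had counts in every library. The sums for body wall muscle, pharyngeal muscle, neurons and germ line overlapped between U18A controls and mutants, with none called. In the U13A table the sperm sum was 17.46 to 18.57 CPM in controls and 15.15 to 17.02 CPM in mutants. The body wall muscle sum there was 1054 to 1485 and 1500 to 1524 CPM. The other U13A sums overlapped, and no marker was called. The part of the U18A differences in the fall of the moulting genes was not tested.

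In the U13A mutant 0 of the 9 genes were called, against 1.55% of all 12044 tested genes. At an unadjusted p under 0.05, edgeR named 2 members, lrp-1 and bli-5, against 12.6% of all genes, and these were also the members whose groups did not overlap, which held for 19.1% of all tested genes in either direction. DESeq2 called 0 as well. The median log2 fold change was 0.07 for the members and -0.01 for all genes.

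lrp-1, the receptor gene, was at 39.2, 35.1 and 32.1 CPM in the U13A controls, in the order A to C, and at 47.4, 45.9 and 42.5 CPM in the mutants. Its mutants were thus all above its controls, by at least 1.09 times, whereas in the other table they were below. The estimate was 0.35 (SE 0.13, p 0.0154, adjusted p 0.242). bli-5, the inhibitor gene, was at 1.65, 1.69 and 1.98 CPM in controls and at 0.928, 1.32 and 1.21 CPM in mutants, on 21 to 44 counts per library. All of its mutants were below its controls, with an estimate of -0.61 (SE 0.24, p 0.0254, adjusted p 0.297).

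The other 7 members overlapped between the U13A groups. mlt-10 was at 10.8, 5.95 and 8.78 CPM in controls A to C and at 4.33, 5.62 and 8.86 CPM in mutants A to C, an estimate of -0.44 with a 95% interval of -1.10 to 0.22. mlt-11 was at 13.9, 9.94 and 16.2 CPM in controls and at 12.7, 14.3 and 20.0 CPM in mutants, an estimate of 0.25 (-0.20 to 0.70). For both genes mutant C was the highest mutant, and the spread within each group was as wide as the gap between the groups.

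mlt-8 had 10.9, 9.09 and 8.11 CPM in controls and 7.02, 7.85 and 11.4 CPM in mutants, an estimate of -0.11 (-0.51 to 0.29). mlt-9 had 5.99, 4.296 and 2.74 CPM in controls and 3.80, 4.47 and 5.96 CPM in mutants, an estimate of 0.07 (-0.47 to 0.61). acn-1 had 5.95, 3.84 and 5.38 CPM in controls and 3.67, 2.98 and 5.59 CPM in mutants, an estimate of -0.29 (-0.81 to 0.23). For mlt-8, mlt-9 and acn-1 the lower ends of these intervals, given at 95%, lie above the U18A estimates of the same genes, and mutant C was again the highest mutant. Setting them side by side leaves out the error of the U18A estimates. The direct edgeR test of the difference, given below, did not call acn-1 (adjusted p 0.235).

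The kinase genes were near the limit of what these libraries could measure. nekl-2 held 6 to 21 counts per U13A library and nekl-3 7 to 43. Their levels were 0.283 to 0.806 CPM in controls and 0.401 to 0.795 CPM in mutants for nekl-2, and 0.661 to 1.65 and 1.55 to 2.06 CPM for nekl-3. The intervals were accordingly wide, -0.75 to 1.06 around 0.16 for nekl-2 and -0.11 to 1.11 around 0.50 for nekl-3. Without U13A control C, the library with few protein-coding counts, or without any other U13A library, 0 members were called.

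**Figure D2:**
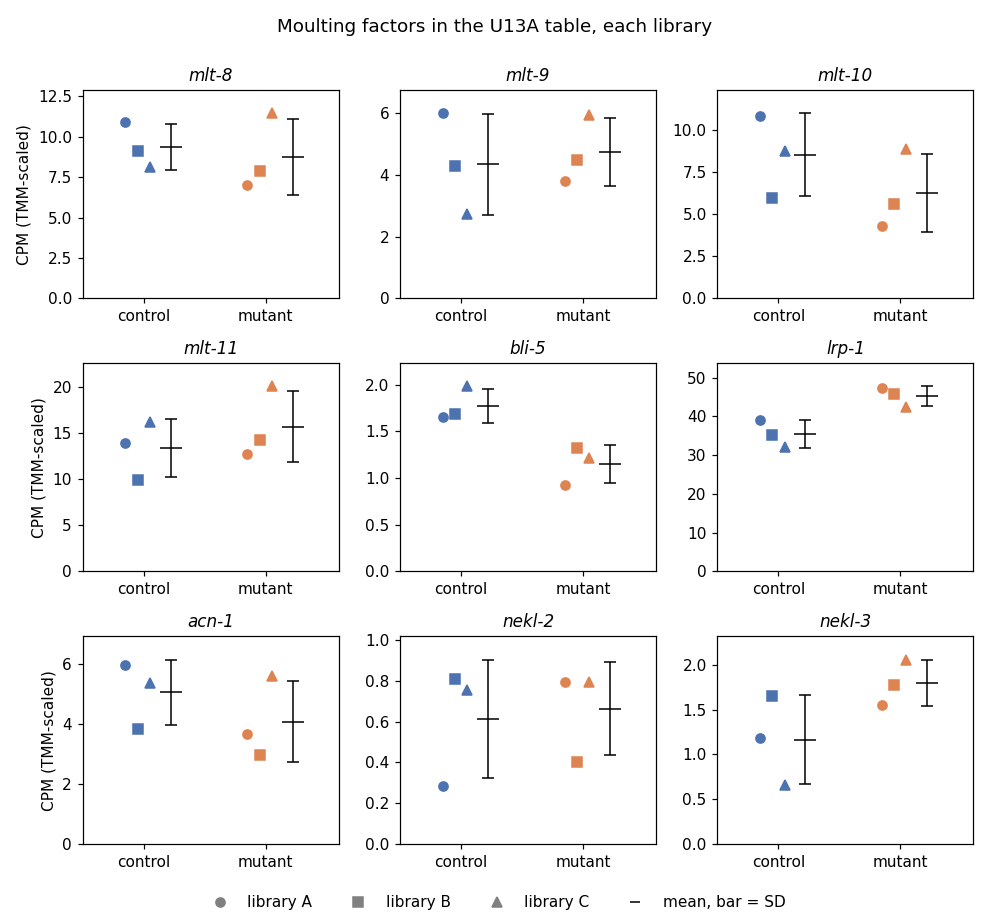
Panels as for the U18A table, here for the 3 control and 3 mutant libraries of the U13A table (vertical axis, TMM-scaled CPM from 0, with mean and SD as the black mark). The groups separate for lrp-1, higher in the mutants, and for bli-5, lower in the mutants, and overlap in the other 7 panels.

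Whether the members responded differently in the 2 contrasts was tested directly, as the U13A change minus the U18A change in 1 fit to all 12 libraries. The U13A change was the higher one for all 9 members, while over all 14155 genes 6886 estimates of the difference were below 0. The difference was called for lrp-1, mlt-8, mlt-9 and mlt-11, that is for 4 of 9, where 1.62% of 14155 genes were called in this direction. Because each contrast sits in its own table, an effect of the table cannot be told apart from one of the strains.

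For lrp-1 the difference was 1.38 (SE 0.19, 95% interval 0.99 to 1.77, adjusted p 0.000118), and its call held in each of the 12 fits without 1 library, with adjusted p-values up to 0.00101. For mlt-11 it was 1.95 (SE 0.40, adjusted p 0.0386), for mlt-9 1.67 (SE 0.39, adjusted p 0.0498) and for mlt-8 1.24 (SE 0.28, adjusted p 0.028). Of the 12 fits without 1 library, 4 called mlt-11, 3 called mlt-9 and 6 called mlt-8, so these calls depended on single libraries of either table. lrp-1 was the member called alone without U13A control B or C or without U18A mutant A, B or C, and 2 members were called without U13A mutant B or C or without U18A control B.

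The remaining 5 members had differences that did not pass. They were 1.05 for nekl-3 (95% interval 0.24 to 1.87, adjusted p 0.237), 0.97 for acn-1 (0.23 to 1.70, 0.235), 0.89 for mlt-10 (-0.07 to 1.85, 0.457), 0.56 for nekl-2 (-0.41 to 1.53, 0.702) and 0.51 for bli-5 (-0.19 to 1.22, 0.606). bli-5 and mlt-10 had negative estimates in both contrasts. Of the intervals, those of nekl-3 and acn-1 lie above 0 before adjustment over all genes.

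**Figure D3:**
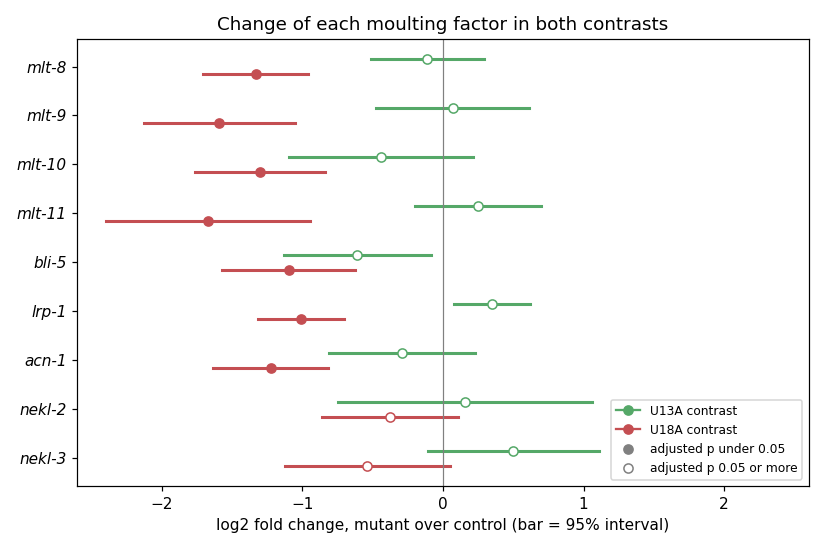
The log2 fold change of mutant over control (horizontal axis) is drawn for each of the 9 genes in the U13A contrast (green) and the U18A contrast (red), with bars for the 95% interval and filled points for adjusted p under 0.05. The 7 filled points are all in the U18A contrast, between -1.67 for mlt-11 and -1.01 for lrp-1.

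Because the 3 entries distort CPM in the U13A table, the members were also expressed as CPM of the protein-coding counts alone, without TMM scaling. The tables were normalized separately and no test was made across them. On this scale the 9 genes together took 981.8 to 1623 CPM in U18A controls, and 514.8 to 528.1 in U18A mutants, 469.4 to 570.4 in U13A controls and 516.5 to 607.2 in U13A mutants. The U18A controls thus stood above all other libraries, while the remaining 3 groups overlapped. The exact binomial 95% intervals, which cover counting error only, were 956.1 to 1008 for the lowest of the U18A controls and 580.0 to 635.3 for the highest U13A library.

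Single genes differed in this respect. mlt-8 had 105.5 to 174.6 CPM in U18A controls and 56.5 to 57.6 in U18A mutants, against 52.9 to 69.1 and 45.4 to 70.5 in U13A controls and mutants. lrp-1 had its highest levels in U18A controls (303.1 to 459.5) and its lowest in U18A mutants (178.5 to 197.8), with the U13A controls (209.0 to 248.7) and mutants (262.3 to 306.0) between them apart from a small overlap at the top. bli-5 was at 5.55 to 8.79 and 5.99 to 8.05 in U18A and U13A mutants and at 11.4 to 15.9 and 10.5 to 12.9 in the respective controls. The mutant values of both tables were below the control values of both, but on few counts. Exact binomial 95% intervals overlapped, with 5.93 to 12.5 for U18A mutant B and 7.30 to 14.6 for U13A control A. nekl-3 was the exception, with 3.16 to 6.47 in the U18A libraries and up to 12.7 in the U13A libraries, ranges that overlap.

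**Figure D4:**
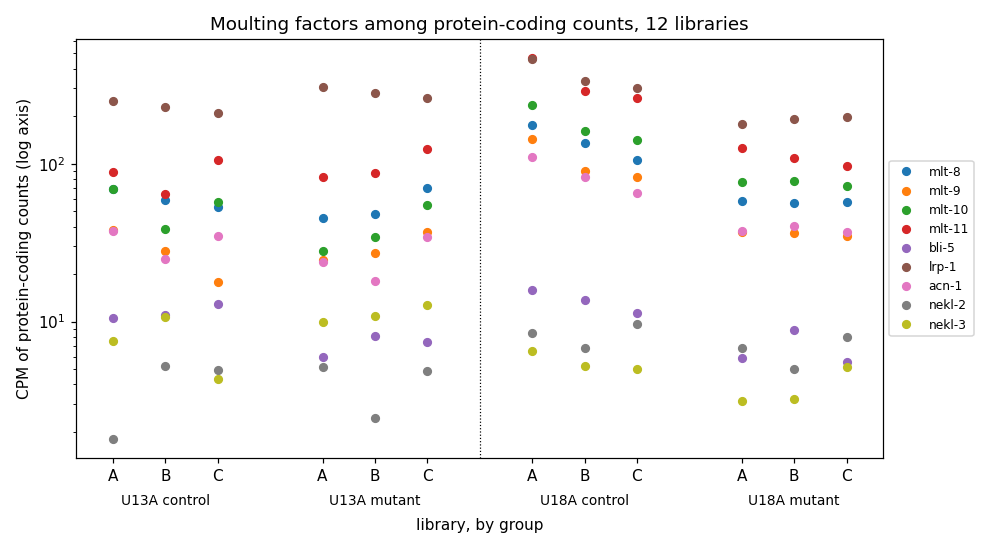
CPM of protein-coding counts (vertical log axis) is shown for each of the 9 genes in all 12 libraries, grouped on the horizontal axis, with 1 point per gene and library and a dotted line between the tables. The U18A controls hold the highest points of all genes except nekl-3, whose highest values are in the U13A libraries.

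Levels of different genes were compared per kilobase of exon, which for mlt-11, with 8 annotated transcripts, uses the union of their exons. In U18A controls the order of the mean level was mlt-8 (74.6 ± 19.2 CPM per kb, SD, n = 3), mlt-10 (45.7 ± 13.3), mlt-9 (29.9 ± 9.82), mlt-11 (20.6 ± 7.04), acn-1 (16.6 ± 4.58), lrp-1 (14.8 ± 3.49), bli-5 (10.9 ± 1.88), nekl-2 (4.14 ± 0.701) and nekl-3 (3.04 ± 0.459). Neighbours in this order overlapped between libraries in every case but that of bli-5 and nekl-2. The kinase genes were the lowest members by this measure in the U18A controls.

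In U18A mutants the order began in the same way, with mlt-8 at 29.6 ± 1.44, mlt-10 at 18.6 ± 1.46 and mlt-9 at 9.92 ± 0.722 CPM per kb, and these no longer overlapped. mlt-11, at 6.47 ± 1.09, stood after lrp-1 (7.35 ± 0.166) and acn-1 (7.09 ± 0.549), and lrp-1, acn-1, mlt-11 and bli-5 (5.17 ± 1.47) overlapped from one to the next. nekl-2 and nekl-3 ended the order at 3.16 ± 0.652 and 2.01 ± 0.497.

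In U13A controls mlt-8 was again the highest per length, at 8.47 ± 1.28 CPM per kb, and did not overlap with mlt-10 at 3.64 ± 1.05. From mlt-10 down, through lrp-1, bli-5, mlt-9, acn-1, mlt-11 and nekl-3 to nekl-2 at 0.516 ± 0.242, each gene overlapped the next. In U13A mutants mlt-8 was at 7.93 ± 2.12, followed by lrp-1 at 3.08 ± 0.168 and mlt-10 at 2.68 ± 0.997.

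The likeness of the members over the 12 libraries was uneven. As a description, Pearson correlations were taken over 12 values of log2 CPM centred within each table, which share library depth and hold the group differences. Among mlt-8, mlt-9, mlt-10, mlt-11 and acn-1 they ran from 0.831 (mlt-9 with mlt-10) to 0.963 (mlt-10 with acn-1). lrp-1 was closest to mlt-9 (0.907), and bli-5 to mlt-10 (0.852). nekl-2 had at most 0.282 with any other member. nekl-3 ran from 0.0609 with bli-5 to 0.669 with lrp-1.

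Among 5245 genes with a mean of at least 5 CPM, those most like each member over the same 12 values were listed. For mlt-10 they were pqn-32 (0.990), ptr-18 (0.988), a patched-related gene, and ZC247.1 (0.975). For mlt-11 they were T03D8.6 (0.983), the cadherin gene cdh-12 (0.979) and the collagen gene col-169 (0.949). acn-1 was nearest to pqn-32 (0.975), the cuticle collagen gene rol-8 (0.947) and bus-8 (0.939), which encodes a glycosyltransferase of the epidermis. For lrp-1 they were the transcription factor gene blmp-1 (0.967), aagr-4 (0.965) and the patched-related gene ptr-4 (0.953), and for nekl-3 tdo-2 (0.903), spc-1 (0.894) and rhy-1 (0.893). The figures for nekl-3 rest on few counts. A correlation does not give the size of a change. In the U18A contrast ZC247.1 changed by -0.27 (edgeR adjusted p 0.0633), spc-1 by -0.16 (0.253) and rhy-1 by -0.35 (0.0723), none of them called. The other genes named here as most like a member were called lower there.

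Other genes of moulting were read from 3 lists. The first held 14 genes of the NEKL pathway and of clathrin-mediated endocytosis, such as the ankyrin-repeat genes mlt-2, mlt-3 and mlt-4, which encode partners of the NEKL kinases, the AP2 adaptor genes apa-2, apb-1, dpy-23 and aps-2, the clathrin gene chc-1 and the dynamin gene dyn-1. edgeR called 0 of 14 in either contrast or in the difference, and DESeq2 called 0 in each. At an unadjusted p under 0.05 edgeR named 3 of 14 in U13A, 2 in U18A and 7 in the difference, where it named 12.6, 21.5 and 12.2% of all genes. In the U18A contrast mlt-2 had an estimate of -0.64 (SE 0.32, adjusted p 0.253) and mlt-4 one of -0.35 (SE 0.18, adjusted p 0.265), and the median of the list was -0.11. For the difference apa-2 was at 0.60 (adjusted p 0.0792), and it was called in the fit without U13A control B.

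The list of effectors held 17 genes of the cuticle, the apical matrix and its processing. In the U18A mutant 11 of 17 fell, beside 5.88% of all genes, with a list median of -0.82. They included fbn-1, a fibrillin-like matrix gene (-2.01, SE 0.24, adjusted p 0.00181), the zona pellucida domain genes noah-1 (-1.69) and noah-2 (-1.72), the metalloprotease gene zmp-2 (-1.64), the hedgehog-related gene qua-1 (-1.50), the leucine-rich repeat genes sym-1 (-1.40) and pan-1 (-0.58), the patched family genes ptr-4 (-1.28) and ptc-3 (-1.19), the cathepsin gene cpz-1 (-0.82) and the astacin protease gene nas-36 (-0.54). The estimate of zmp-2 (SE 0.36) rested on few counts, 27 to 52 per control and 10 to 14 per mutant. The peroxidase gene mlt-7 (-0.10, adjusted p 0.593) and the dual oxidase gene bli-3 (-0.18, adjusted p 0.382), which cross-link the cuticle, were not called. Without U18A mutant C 7 of the 17 were called: fbn-1, noah-1, noah-2, zmp-2 and ptc-3 were lost, and the astacin protease gene nas-37 was gained (-0.61, adjusted p 0.0284). nas-36 and noah-1 were also lost without control B, zmp-2 without control A, and ptc-3 without mutant A.

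In the U13A mutant 4 of the 17 effectors were called higher, where 0.731% of all genes were, and 0 were called lower. They were fbn-1 (2.05, SE 0.18, adjusted p 7e-05), noah-2 (1.35), noah-1 (1.30) and sym-1 (1.26), and all 4 were called in each fit without 1 library. At an unadjusted p under 0.05 edgeR named 11 of 17, beside 12.6% of all genes. Of these nas-36 (-0.75), cpz-1 (-0.38) and mlt-7 (-0.32) were lower in the mutants and the others higher. fbn-1 was at 2.17, 1.92 and 1.79 CPM in the U13A control libraries and at 7.55, 7.62 and 9.59 CPM in mutants A to C. In the U18A table it was at 66.7, 41.7 and 36.98 CPM in controls and at 10.8, 13.3 and 11.9 CPM in mutants. The groups of fbn-1 thus separated in both tables, in opposite directions. The difference was called for 9 of the 17, beside 1.62% of all genes, fbn-1 with 4.09 (SE 0.30) and noah-2 with 3.09 (SE 0.25) among them, all with the U13A change above. Of these, nas-37 (0.85, edgeR adjusted p 0.0497) was called in 3 of the 12 fits without 1 library. zmp-2, with 0 to 13 counts per U13A control, was called in 11, and the others were called in all 12.

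The list of regulators held 10 genes of the timing and transcription of the moult, of which 9 had enough counts to be tested and nhr-67 did not. In the U18A mutant 7 of 9 fell, beside 5.88% of all genes: the nuclear receptor gene nhr-85 (-1.36), the Grainyhead gene grh-1 (-1.15), bed-3 (-0.99), the Period relative lin-42 (-0.95), myrf-1 (-0.93), blmp-1 (-0.62) and the casein kinase gene kin-20 (-0.41). The nuclear receptor genes nhr-23 (-0.04, adjusted p 0.846) and nhr-25 (-0.10, adjusted p 0.919) were not called. nhr-23 is known as a driver of moulting genes, and its 95% interval ran from -0.25 to 0.16. That of nhr-25, on 7 to 21 counts per U18A library, was wide, from -0.94 to 0.74. The estimate of nhr-85 (SE 0.32) rested on 22 to 25 counts per U18A control and 7 to 12 per U18A mutant. lin-42 was not called without U18A mutant C, nor nhr-85 without control A. In the U13A mutant edgeR called 0 of 9, with 2 at an unadjusted p under 0.05 (12.6% of all genes), and DESeq2 called 0. The difference was called for 3 of 9, beside 1.62% of all genes, namely myrf-1 (1.64, SE 0.27), nhr-85 (1.70, SE 0.42) and blmp-1 (0.96, SE 0.18), and that of nhr-85 was lost in 9 of the 12 fits without 1 library.

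**Figure D5:**
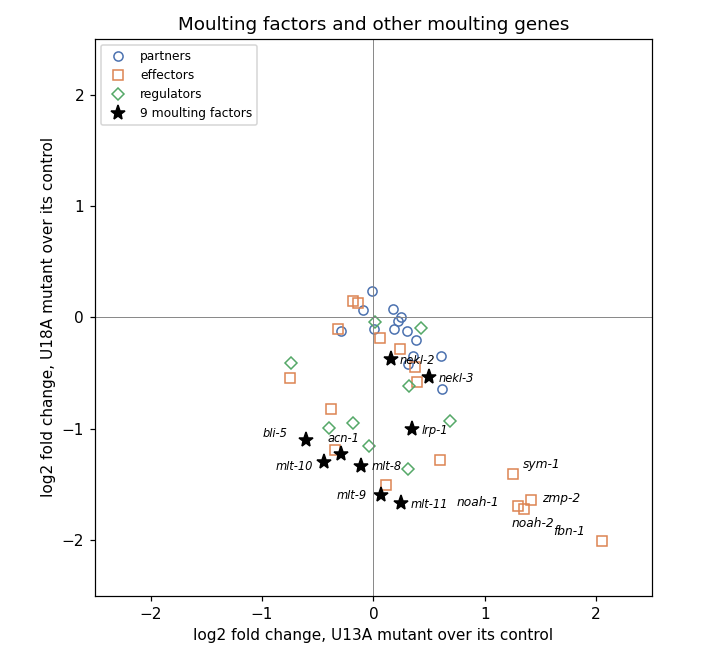
Each point is a gene, placed by its log2 fold change in the U13A contrast (horizontal axis) and in the U18A contrast (vertical axis), with black stars for the 9 moulting factors and open symbols for the lists of partners, effectors and regulators. The factors spread from -0.61 to 0.50 along the horizontal axis and reach down to -1.67 on the vertical one, the partners reach from -0.64 to 0.24 on the vertical axis, and fbn-1, noah-1, noah-2, sym-1 and zmp-2, the last not called in U13A, stand at the lower right.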

How the data were processed

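The authors deposited raw counts per gene in a table for each mutant and its control. The submitters' processing notes name cutadapt 1.9, Bowtie2 2.3.4.3, featureCounts and Subread 1.6.2, while the build, the annotation, the strand setting and the treatment of reads with several matches are not given in the sources used here. Ambiguous or multiply mapped reads could thus be lost or split in genes that overlap others. Each table was fitted with edgeR 4.0.16 in R 4.3.3 (TMM, filterByExpr at its minimum count of 10 and total of 15, glmQLFit with robust estimation, glmQLFTest, 2-sided, Benjamini-Hochberg over all genes), and the difference of the contrasts on all 12 libraries together, over the genes that both tables hold. SE was computed as the absolute log2 change over the root of the F statistic. Correlations used log2 CPM with a prior count of 2. The procedure was tested on simulated counts with the same spread for all genes and no outlying library, a simpler setting than that of these data. The alternatives tried were no count filter, RLE size factors, a mean of at least 10 counts, removal of the 10 most abundant entries, DESeq2 1.42.0, the letter as a replicate block, all 12 libraries in 1 fit, an adjusted p under 0.01, unscaled library sizes for levels per length, each library left out and, added after seeing the data, protein-coding genes only. Exon lengths and positions are from WBcel235 (Ensembl), and mlt-2, mlt-3, zmp-2 and myrf-1 were matched through RefSeq locus tags or synonyms to the names in the tables. All members and let-7, lin-41 and the listed genes were to be named, of a list those that passed and up to 2 others. The members and the lists were chosen with earlier results of these data known. Promoter and protein sequences were not used here. Figures were drawn with matplotlib 3.10.9 in Python 3.11.15.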

Additional observations from a re-analysis of the deposited data

Results flagged for a closer look

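The responses of 4 members differed between the contrasts in the direct test of the difference on all 12 libraries. The U13A change exceeded the U18A change by 1.38 for lrp-1 (adjusted p 0.000118), by 1.95 for mlt-11 (0.0386), by 1.67 for mlt-9 (0.0498) and by 1.24 for mlt-8 (0.028) on the log2 scale. Only lrp-1 among them was called in every fit without 1 library.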

How the results depend on the processing

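Over all settings the estimates of the 7 called members in the U18A contrast stayed negative, from -1.84 to -0.80. The members called there numbered 1 to 7 when 1 library was left out, and 6 without the count filter, where mlt-11 had an adjusted p of 0.0871. For the difference, members called numbered 1 to 4 when 1 library was left out and 1 at an adjusted p under 0.01. mlt-9 lost its difference with RLE size factors (0.0564) and with the 10 most abundant entries removed (0.0509), and acn-1 gained one without the count filter (0.000773). In U13A, estimates near 0 changed sign when 1 library was left out: mlt-8 ran from -0.34 to 0.035, mlt-9 from -0.12 to 0.36 and nekl-2 from -0.23 to 0.57. Over all genes, U13A calls numbered 187, but 543 without the count filter, 393 with the replicate block, 431 with all 12 libraries in 1 fit, 54 at an adjusted p under 0.01 and 37 to 352 without 1 library. U18A calls numbered 1036, 507 at an adjusted p under 0.01 and 548 to 1109 without 1 library, and difference calls 277, 473 without the filter, 144 at an adjusted p under 0.01 and 176 to 342 without 1 library. The cause was not tested. Same-letter libraries correlated by -0.03 to 0.09 in U13A and -0.01 to 0.12 in U18A. With 3 libraries per group, these values cannot decide whether the letters pair them. With the replicate block 0, 7 and 4 members were called in U13A, U18A and the difference, as without it. All genes called in U18A numbered 1429 with the block, and the edgeR adjusted p of mlt-11 there was 8.0e-09. Of the lists, effectors called in U13A numbered 7 and regulators 2 without the filter, and regulators in the difference 5. With the replicate block 1 partner was called in the difference and 1 regulator in U13A. The level of lrp-1 in U13A mutants moved from 3.08 to 3.37 CPM per kb with unscaled library sizes. The kinase genes, with 6 to 54 counts, limit what depth can show.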
